A study of Mus musculus with 2 samples.

Results

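The genes described here are 33 genes of DNA repair and damage signalling, taken from a list of names and grouped by role. They comprise 4 damage kinases, 6 genes of break sensing and chromatin, 5 of homologous recombination, 3 of the Fanconi anemia pathway, 5 of end joining, 4 of base excision and single-strand break repair, 2 of mismatch repair and 4 of nucleotide excision repair. All 33 were among the 21041 genes of the matrix.

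Single-cell RNA sequencing had been carried out on adenomas of the distal colon from Apcmin mice aged 25 weeks, which inherit a truncated Apc gene and form intestinal adenomas, and which carried an inducible mouse telomerase allele (LSL-mTERT). The labels name the groups G4+T and G0+T, with 1 library each, and do not say how many animals were pooled. The authors assigned each cell a class, CIN_high or CIN_low, where CIN stands for chromosomal instability in the study's title. All 6189 cells of one library were CIN_high and all 7908 cells of the other were CIN_low, so the class is a difference between 2 libraries. The labels conflict on which library is G4+T and which G0+T, and neither is assigned here. Each class being a single library, no replicate check could be made and nothing was tested, and mouse, tissue piece and preparation cannot be told apart from class.

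DNA damage signalling starts when the kinases ATM and ATR are recruited to breaks or to stalled replication forks and pass the signal to CHK2 and CHK1. Breaks are then joined end to end by the Ku and DNA-PK machinery, or copied from the sister chromatid by BRCA1 and BRCA2, while base, nucleotide and mismatch repair remove single damaged or mispaired bases. Homologous recombination, mismatch repair and the Fanconi pathway work mainly in dividing cells, and in the colon division is concentrated in the crypt and in adenoma tissue. Transcript levels do not measure the activity of these proteins, much of which is set by modification and recruitment.

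The libraries held 51868113 (CIN_high) and 74733715 (CIN_low) unique transcript molecules (UMIs). The authors annotated 1316 CIN_high and 1725 CIN_low cells as epithelial, with a median of 14032.5 and 15364 UMIs per cell. The summed level of 8 epithelial markers in them was 96.5 and 90.4 UMIs per 10000, with no marker at 0. In the same cells 6 fibroblast markers summed to 0.549 and 0.0300 UMIs per 10000, 6 neutrophil markers to 6.33 and 17.6, and 6 myeloid markers to 2.75 and 3.86. The suffixes shared 11 barcodes. In what follows, UMIs of a gene were scaled to 10000 UMIs in each cell, and their average across cells is called the level. A ratio is that of such means, and the interval beside it is the exact 95% interval of the ratio of summed UMIs, which covers counting error only. A gene was called measured where 2% or more of the cells of either library held a UMI of it, and differences were counted at a line of 1.5-fold.

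Within the epithelium many of the repair genes had their highest level in cycling cells. In the cells annotated as Proliferating (111 CIN_high and 199 CIN_low cells) the levels of all 33 genes summed to 9.51 and 10.5 UMIs per 10000, against 2.36 and 2.85 in the cells annotated as Enterocyte (107 and 98 cells), the absorptive cells of the gut lining. Of the 5 subtypes with at least 50 cells in each library, the Proliferating cells had the highest level of 20 genes in both libraries, and the Enterocytes the lowest level of 16. Over the 32 of the genes that 2% or more of epithelial cells of either library held, the counts were 19 and 16, where the same held for 17.8% and 40% of all 13304 such genes. Cells with at least 5000 UMIs were then thinned to that number, which left out 109 CIN_high and 102 CIN_low epithelial cells. Among those left out were 19 and 24 Enterocytes but 3 and 3 Proliferating cells. After thinning, a Proliferating cell held transcripts of a mean of 4.01 (CIN_high) and 4.60 (CIN_low) of the 33 genes. The mean was 2.40 and 2.52 in the adenoma subtype Cancer_cell_1 and 1.00 and 0.932 in Enterocytes. Over all cells, unthinned, the means were 12.8 and 14.1 in Proliferating cells, 5.80 and 6.68 in Cancer_cell_1 and 2.63 and 3.38 in Enterocytes. The authors' subtypes were built on these cells, so these levels are a description.

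A split that used none of the 33 genes was made from lists of 29 S phase genes and 30 G2 and M phase genes. In each library the 10% of epithelial cells with the highest share of S phase transcripts (132 CIN_high and 173 CIN_low cells) were set against the cells below the median by both lists (404 and 543 cells). Of the 33 genes, 16 were at least 2-fold higher in the S phase range in both libraries, and 9 were under 1.5-fold in both. Of the 13245 genes measured in epithelium and outside the cycle lists, 5.21% were at least 2-fold higher in both libraries and 75.9% were under 1.5-fold. In the top 10% by G2 and M phase transcripts 13 genes were at least 2-fold higher in both, where 5.06% of all were. Rad51c, which fewer than 2% of epithelial cells held, is among the 16 and the 13. The S phase and G2 and M ranges overlap, with 71 of 132 cells shared in the CIN_high library and 82 of 173 in the CIN_low one. Depth differed too, at medians of 20513.5 and 22577 UMIs in the S phase range, against 12049.5 and 14500 in the low range, and its part was not tested. These ranges are cut from a score and are not cell types.

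Homologous recombination and Fanconi genes stood at the cycling end. Brca1, whose protein directs resection and recombination, was at 0.481 (CIN_high) and 0.509 (CIN_low) UMIs per 10000 in the S phase range, against 0.0623 and 0.0176 in the low range, ratios of 7.71 (interval 6.31 to 14.8) and 28.9 (15.6 to 46.1). Brca2, a core gene of homologous recombination, was 10.2-fold and 8.34-fold higher, and Palb2, which links the BRCA1 and BRCA2 proteins, 5.21-fold and 12.9-fold. Fanca, of the Fanconi core complex, was 51.0-fold (10.3 to 105) and 18.4-fold (7.98 to 33.4) higher, on 4 and 10 UMIs in the low range. Fancd2, which the core complex helps to ubiquitinate at crosslinks, was at 0.115 and 0.132 UMIs per 10000, against 0.00450 and 0.0134 in the low range. Its partner Fanci had 27 and 43 UMIs in the S phase range and 0 and 1 UMIs in the low range. None of the 3 Fanconi genes had more than 12 UMIs in the low range of either library. Rad52 did not share this pattern, at 1.11-fold and 0.504-fold.

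Chek1, the effector of ATR, was 10.7-fold (8.64 to 48.4) and 20.8-fold (14.6 to 59.0) higher in the S phase range of the CIN_high and CIN_low libraries, and Chek2 4.22-fold and 4.79-fold. The upstream kinases varied less: Atm was 2.12-fold and 2.17-fold higher and Atr 1.82-fold and 1.96-fold. H2afx, the histone variant phosphorylated around breaks, was at 0.786 and 1.22 UMIs per 10000 in the S phase range, against 0.141 and 0.147 in the low range. It was also 6.74-fold and 11.3-fold higher in the G2 and M range. Ung, the glycosylase that removes uracil from DNA, was 29.1-fold (9.57 to 61.7) and 21.1-fold (10.7 to 27.3) higher in the S phase range. Unlike H2afx, its level in the S phase range was 2.30-fold and 3.67-fold that of the G2 and M range. Msh6, a mismatch recognition subunit, was 5.57-fold and 4.83-fold higher in the S phase range.

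Of the 9 nucleotide excision and end joining genes, 0 were at least 2-fold higher in the S phase range of both libraries. Of all measured genes outside the cycle lists 5.21% were, so 0 of 9 is near that background. Xpc, which recognises distorted DNA, was at 0.191 (CIN_high) and 0.181 (CIN_low) UMIs per 10000 in the S phase range, against 0.250 and 0.297 in the low range, ratios of 0.763 (0.513 to 0.961) and 0.608 (0.466 to 0.765). Xpa, the scaffold of that pathway, had ratios of 0.637 and 0.579, and Trp53bp1, which shields break ends from resection, 0.625 and 0.806. For all 3 the interval lay below 1 in both libraries, and the share of all genes with such intervals was not counted. Ercc1, part of a repair nuclease, had ratios of 0.996 and 0.958, Lig4, the ligase of end joining, 0.835 and 0.872, and its cofactor Xrcc4 0.768 and 0.646, each with an interval that included 1. The Ku subunits differed from each other: Xrcc5 was at 1.07-fold and 1.32-fold and Xrcc6 at 1.78-fold and 2.61-fold.

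**Figure D1:**
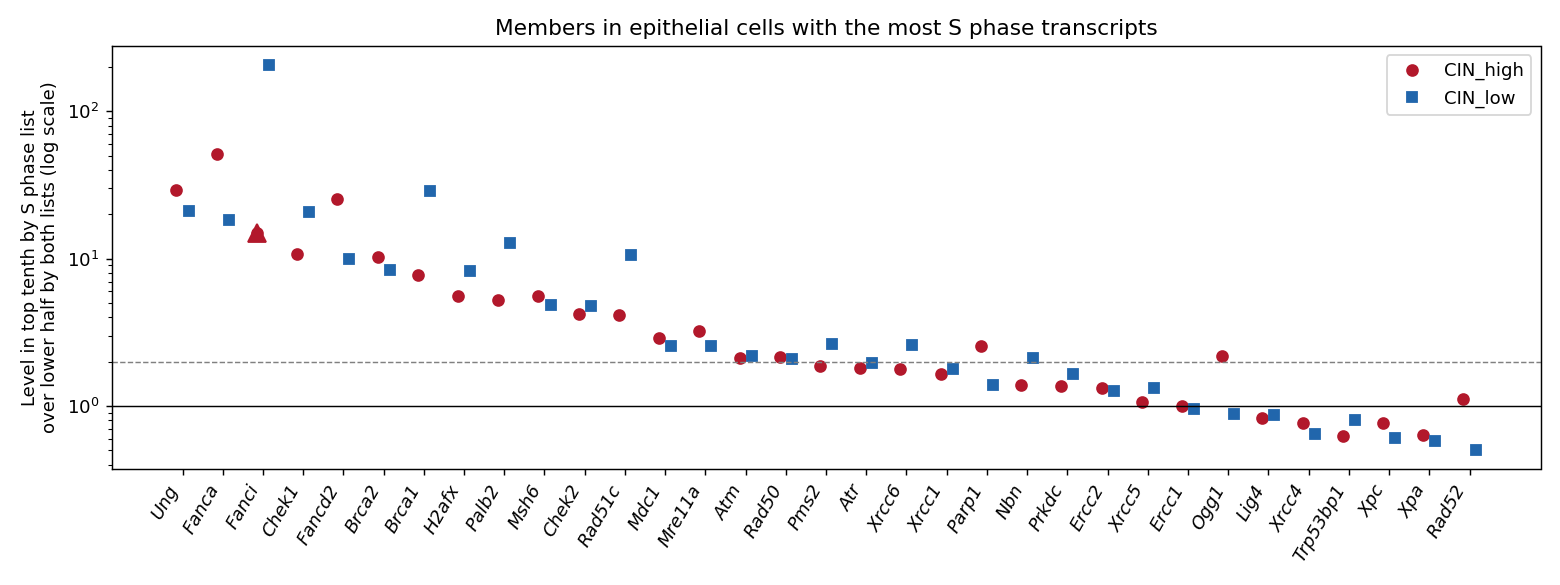
Each of the 33 genes, ordered by the lower of its 2 values, with its level in the 10% of epithelial cells richest in S phase transcripts over that in cells below the median by both lists (log scale; circles CIN_high, squares CIN_low; dashed line at 2-fold). Ung, the Fanconi genes, Chek1 and Brca2 lie at the left and Xpc, Xpa and Rad52 at the right; the triangle for Fanci is a lower bound from a floor of 3 UMIs, and its CIN_low value rests on 1 UMI in the low range.

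Promoters of the genes were read for letters known from cycle-regulated promoters. RefSeq starts (GRCm38.p6) were found for 27 of the 33 genes, and not for Rad50, Xpc, H2afx, Nbn, Prkdc and Fancd2. The 250 bases upstream were searched on both strands for 4 E2F-like words (the word TTCCCGC, the word TTCGCGC, the word TTGCCGC and the word TTGGCGC), the CCAAT box (CCAAT) and the cell cycle homology region or CHR (TTTGAA). An E2F-like word stood in 4 of the 13 genes at least 2-fold higher in S phase, in 1 of 6 between, and in 5 of 8 under 1.5-fold, against 7.89% of all 32851 promoters. The CCAAT box stood in 7 of 13, 3 of 6 and 3 of 8, against 33.8% of all promoters. The CHR stood in 0 of the 27, against 16.0%. The background shares count every promoter, without regard to expression here, whereas a member was counted once with any of its promoters. The shares are therefore not fully alike. Words can overlap, as an E2F-like word and a CCAAT box do in Ercc2 and a pair of E2F-like words in Lig4. A match is a description of the letters only. Printed here are 3 promoters of genes higher in S phase and 1 of Xrcc4, which was not, since all 4 hold an E2F-like word. Capitals mark E2F-like words and CCAAT boxes on either strand, and each sequence runs 5′ to 3′ on the gene's strand to the base before the start. Brca2 is chr5:150522371-150522620 (plus strand), Chek2 chr5:110839733-110839982 (plus), Mdc1 chr17:35841248-35841497 (plus) and Xrcc4 chr13:90089609-90089858 (minus).
Brca2: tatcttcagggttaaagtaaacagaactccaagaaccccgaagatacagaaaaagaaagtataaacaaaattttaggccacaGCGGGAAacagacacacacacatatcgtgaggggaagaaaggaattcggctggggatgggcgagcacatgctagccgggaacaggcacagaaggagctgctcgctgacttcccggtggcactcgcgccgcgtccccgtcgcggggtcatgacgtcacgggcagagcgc
Chek2: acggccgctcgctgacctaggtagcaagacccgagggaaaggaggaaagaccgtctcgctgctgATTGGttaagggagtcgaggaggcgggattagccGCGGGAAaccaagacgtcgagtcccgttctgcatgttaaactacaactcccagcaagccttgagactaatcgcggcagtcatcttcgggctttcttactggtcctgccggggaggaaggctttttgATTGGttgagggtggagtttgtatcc
Mdc1: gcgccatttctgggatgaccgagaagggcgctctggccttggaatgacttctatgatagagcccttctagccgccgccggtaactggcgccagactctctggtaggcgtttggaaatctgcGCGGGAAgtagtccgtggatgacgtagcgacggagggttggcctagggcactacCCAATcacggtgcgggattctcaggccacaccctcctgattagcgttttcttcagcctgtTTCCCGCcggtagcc
Xrcc4: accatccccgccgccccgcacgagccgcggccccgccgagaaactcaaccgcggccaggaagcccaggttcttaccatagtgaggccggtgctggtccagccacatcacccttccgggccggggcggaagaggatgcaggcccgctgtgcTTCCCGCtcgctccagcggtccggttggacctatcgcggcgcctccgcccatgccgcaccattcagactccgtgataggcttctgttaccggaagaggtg
Brca2 carries 1 E2F-like word starting 168 bases upstream. Chek2 carries 1 at 152 bases, with CCAAT boxes in reverse at 186 and 26. Mdc1, the scaffold that binds phosphorylated H2AX, carries E2F-like words at 129 and 15 with a CCAAT box at 75. Xrcc4, printed because it holds an E2F-like word, carries 1 at 100 bases.

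Of the 5 subtypes compared, p57+_cancer_cell (77 CIN_high and 211 CIN_low cells) had the highest level of 3 genes in both libraries. These were Parp1, which senses single-strand breaks, Xpa and Rad52. The authors named this subtype after the cell cycle inhibitor p57. Parp1 was at 1.26 and 1.58 UMIs per 10000 there, against 0.481 and 0.505 in the other epithelial cells, ratios of 2.61 (1.97 to 2.96) and 3.12 (2.60 to 3.19). It was at 0.929 and 0.851 in Proliferating cells and 0.125 and 0.112 in Enterocytes. Xpa was at 0.432 and 0.451 UMIs per 10000 in p57+ cells, against 0.230 and 0.257 in the others (1.88-fold and 1.76-fold). Rad52 was at 0.131 and 0.140 UMIs per 10000 there, close to the 0.122 and 0.140 of Cancer_cell_1. On summed UMIs Rad52 in the CIN_high library was lower in p57+ cells (0.107 per 10000, 9 UMIs) than in Cancer_cell_1 (0.124). In the same p57+ cells Chek2 had 0 and 3 UMIs, Brca2 4 and 7 and Brca1 3 and 7. The level of Chek2 there was 0 and 0.0130 UMIs per 10000, against 0.0911 and 0.0715 in Cancer_cell_1. Fancd2 went the other way, at 0.0301 and 0.0659 in p57+ cells (3 and 16 UMIs), against 0 and 0.00432 in Cancer_cell_1. Rad50, the ATPase of the MRN break sensor, was lower in p57+ cells of both libraries, at 0.438 and 0.469 UMIs per 10000. It was at 0.681 and 0.724 in the other epithelial cells. Trp53bp1 was at 0.395 and 0.368 in Cancer_cell_1, 0.255 and 0.285 in Stem_cell_1, 0.198 and 0.211 in Proliferating cells and 0.0632 and 0.0964 in Enterocytes. In Enterocytes 21 of the 33 genes were at least 1.5-fold lower than in the other epithelial cells of both libraries, where 37.2% of all measured genes were.

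**Figure D2:**
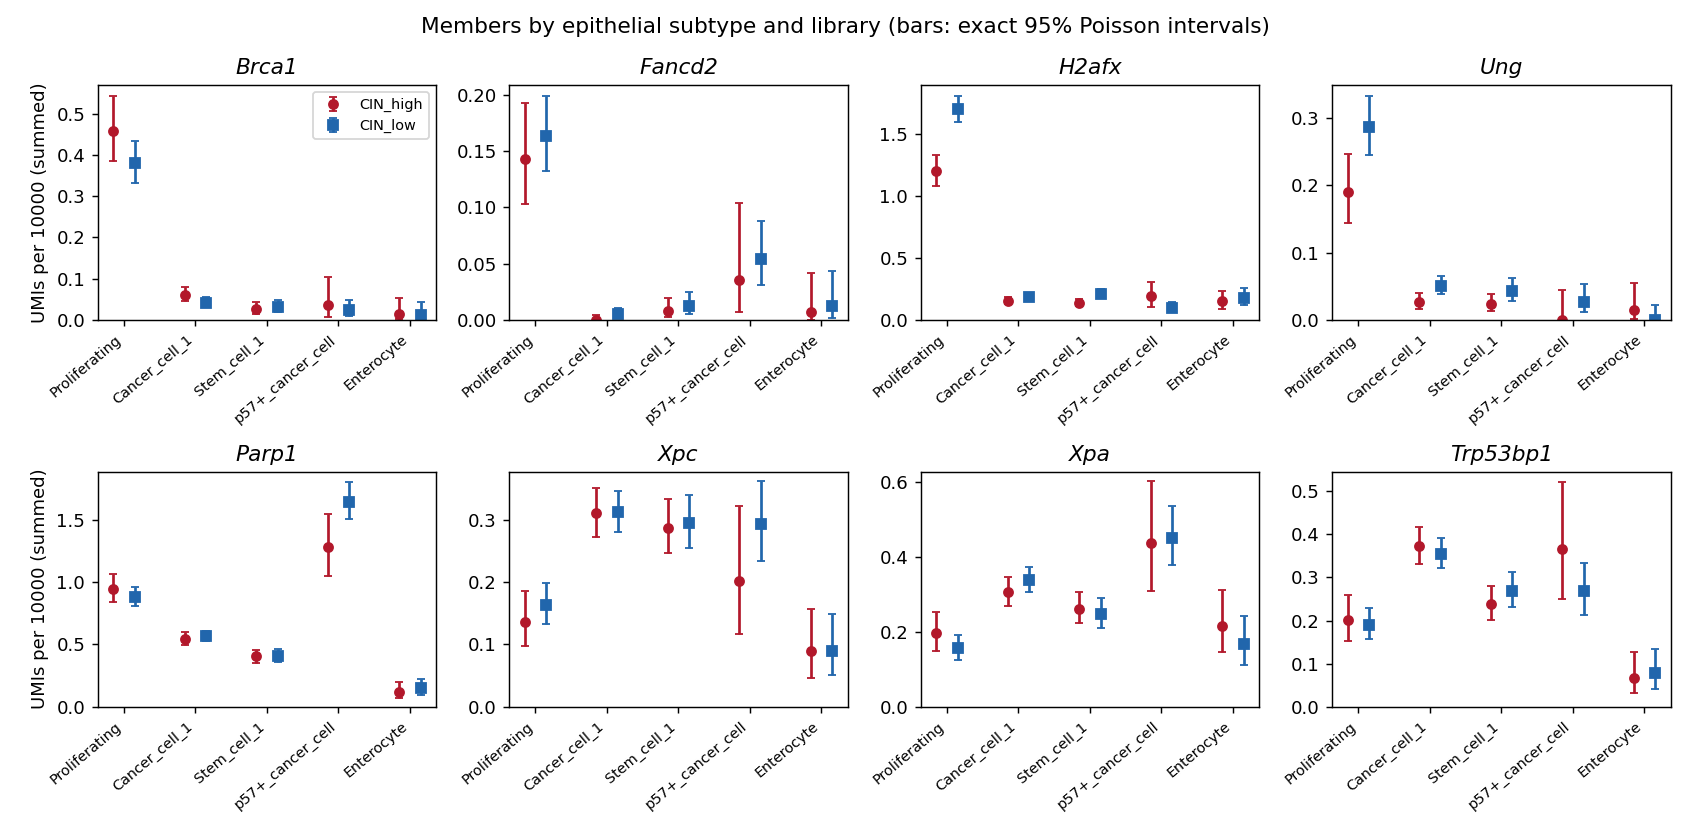
Summed UMIs per 10000 of 8 of the genes in 5 epithelial subtypes, with exact 95% Poisson intervals for counting error (circles CIN_high, squares CIN_low). Brca1, Fancd2, H2afx and Ung peak in Proliferating cells, Parp1 and Xpa in p57+ cells, and Xpc and Trp53bp1 are low in Proliferating cells and Enterocytes.

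Across cell types, epithelial cells had a higher summed level of the genes than myeloid cells (2930 CIN_high and 5348 CIN_low cells). Of the 33 genes, 25 were at least 1.5-fold higher in epithelial cells in both libraries, and none was as much lower. Among the genes measured in either cell type, 54.5% were as much higher in epithelial cells of both libraries. Summed over the 33, the level reached 5.26 (CIN_high) and 5.87 (CIN_low) per 10000 in epithelium, against 2.67 and 2.12 among myeloid cells. It was 3.52 and 3.62 in endothelial cells, 5.30 and 3.60 in pericytes and 5.29 and 4.65 in T and NK cells. Against endothelial cells 15 genes were at least 1.5-fold higher in epithelium in both libraries, where 31% of all were. Against T and NK cells 7 were, where 30.3% of all were, and against pericytes 4, where 20.4% were. Depth differed, at medians of 5721.5 and 6171 UMIs in myeloid cells, and its part in these differences was not tested.

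Xrcc5, the larger Ku subunit, differed by cell type in both libraries. It was at 0.331 (CIN_high) and 0.314 (CIN_low) UMIs per 10000 in epithelial cells, against 0.0189 and 0.00959 in myeloid cells, ratios of 17.5 (15.0 to 31.8) and 32.8 (20.1 to 36.8). A UMI was found in 36.4% and 38.3% of epithelial and in 0.990% and 0.841% of myeloid cells. Endothelial cells stood at 0.0412 and 0.0460, T and NK cells at 0.0999 and 0.117 and pericytes at 0.131 and 0.195, all below epithelium with intervals above 1 for the ratio. The order of pericytes and T and NK cells cannot be read, since their counting intervals overlap. Xrcc6, the smaller Ku subunit, differed less, at 0.138 and 0.153 in epithelial and 0.0498 and 0.0309 in myeloid cells. Prkdc, the DNA-PK catalytic subunit that Ku recruits, was at 0.248 and 0.263 in epithelial and 0.119 and 0.0620 in myeloid cells. Parp1 was at 0.527 and 0.636 in epithelial, 0.646 and 0.443 in T and NK, 0.414 and 0.334 in myeloid and 0.154 and 0.317 in endothelial cells.

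**Figure D3:**
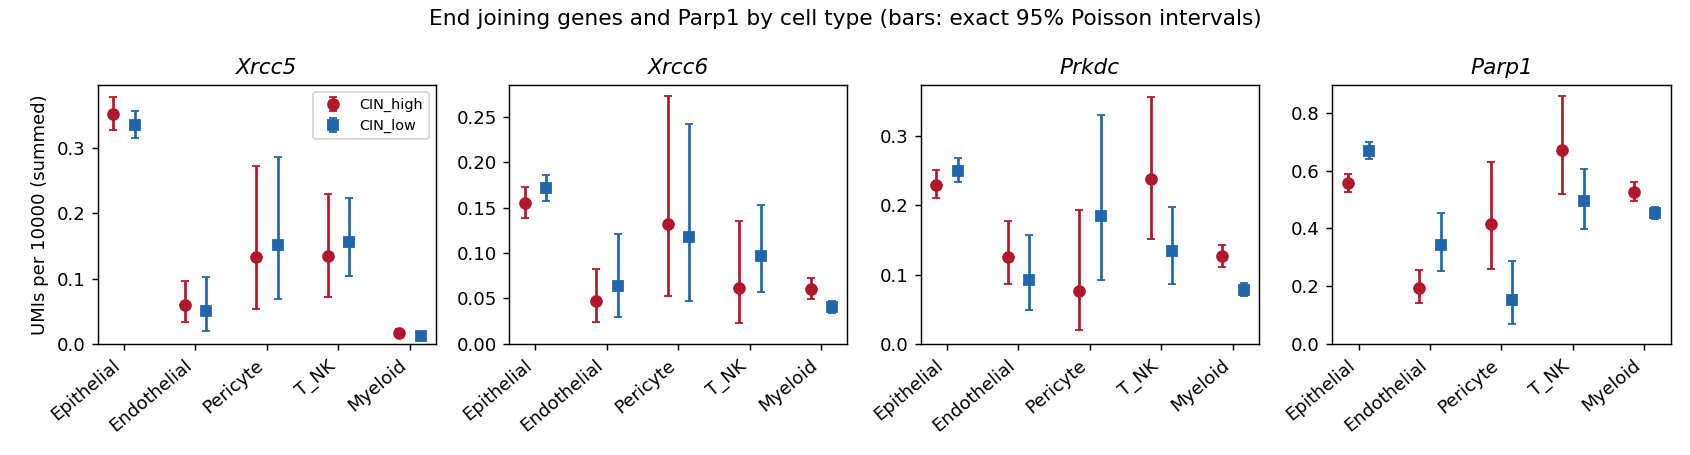
Summed UMIs per 10000 of Xrcc5, Xrcc6, Prkdc and Parp1 in 5 cell types, with exact 95% Poisson intervals (circles CIN_high, squares CIN_low). Xrcc5 is highest in epithelial cells and near 0 in myeloid cells in both libraries, whereas Parp1 in T and NK cells overlaps the epithelial values of the CIN_high library.

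In epithelial cells of the CIN_high library few of the repair genes differed from the CIN_low library by 1.5-fold. Of the 33 genes 32 were measured; Rad51c, a gene of homologous recombination, was not, with a UMI in 1.29% of CIN_high and 1.91% of CIN_low cells. None was at least 1.5-fold higher, where 4.16% of the 13304 genes measured in epithelium were, and 3 were at least 1.5-fold lower (Ung, Fancd2 and Palb2), where 7.7% of all were. The count is near that background. The median log2 ratio of the 32 was -0.19, against -0.097 for all genes, with 5 ratios above 1 and 27 below. The interval lay below 1 for 11 genes, above 1 for 1 (Ercc2, a helicase of nucleotide excision repair and transcription, 1.03 to 1.47) and included 1 for 20. Of all 13304 genes the interval lay below 1 for 33.2%, a share near that of the 32, and above 1 for 14.2%.

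Ung (chromosome 5, 114130386 to 114139323, mm10) had a level of 0.0338 in the CIN_high library, against 0.0623 UMIs per 10000 in the CIN_low one, 1.84-fold lower (ratio 0.543, 0.412 to 0.658; 101 and 287 UMIs). Fancd2 (chromosome 6, 113531682 to 113597017) was at 0.0200 and 0.0360, 1.80-fold lower (0.461 to 0.874; 58 and 135 UMIs). Palb2 (chromosome 7, 122107262 to 122132985) was at 0.0252 and 0.0385, 1.52-fold lower, with an interval that included 1 (0.611 to 1.13). Palb2 fell short of the line under each of 7 other ways of processing (1.20-fold to 1.48-fold lower), and with the subtype mix made equal only Ung stayed past it (1.58-fold, against 1.34-fold for Fancd2). H2afx was within the line at 0.230 and 0.325 (ratio 0.707, 0.601 to 0.723). Its ratio was 0.891 without the Proliferating cells, but fell as low as 0.590 under the other ways of processing. At that value H2afx was past the line, at 1.70-fold lower. Fanca, Chek1, Brca1 and Brca2, also higher in the S phase range, had ratios between 0.751 and 1.11. Proliferating cells made up 8.43% of CIN_high and 11.5% of CIN_low epithelium, and the median log2 ratio was -0.42 for the S phase list (6 of 29 at least 1.5-fold lower, 0 higher) and -0.58 for the G2 and M list (15 of 30 lower, 0 higher). The part of these in the members' ratios was not tested beyond the equal subtype mix and the removal of Proliferating cells.

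By role the median log2 ratios were -0.17 for the damage kinases, -0.19 for break sensing, -0.26 for homologous recombination, -0.56 for the 3 Fanconi genes, -0.11 for end joining, -0.29 for base excision, -0.27 for mismatch repair and -0.13 for nucleotide excision. Atm had levels of 0.238 (CIN_high) and 0.255 UMIs per 10000 (CIN_low; ratio 0.934, 0.797 to 0.998), Atr at 0.190 and 0.238 (0.799, 0.711 to 0.912) and Chek1 at 0.0441 and 0.0518 (0.851, 0.626 to 0.990), with a ratio of 1.06 without the Proliferating cells. Chek2 was at 0.110 and 0.0874 (1.26, 0.988 to 1.36). Among break sensors Rad50 was at 0.667 and 0.692 (0.963, 0.944 to 1.07), Nbn, the MRN subunit that binds ATM, at 0.137 and 0.156 (0.879, 0.733 to 0.974), and Trp53bp1 at 0.299 and 0.294 (1.02). Brca1 was at 0.0875 and 0.0791 (1.11), Brca2 at 0.100 and 0.134 (0.751, 0.629 to 0.879) and Rad52 at 0.101 and 0.109 (0.928).

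Fanca was at 0.0378 UMIs per 10000 in CIN_high cells, against 0.0460 in CIN_low cells (0.821, 0.690 to 1.15), and Fanci at 0.0124 and 0.0182 (1.47-fold lower, just inside the line; 0.585 to 1.32). After thinning to 5000 UMIs the ratio was 1.15 for Fanci and 1.02 for Fanca. Thinning leaves fewer UMIs of each gene, so ratios after it carry wider counting error than the main ones. Among end joining genes Xrcc5 was at 0.331 and 0.314 UMIs per 10000 (1.05, 0.956 to 1.15) and Lig4 at 0.0760 and 0.0822 (0.925, 0.665 to 0.990). Parp1 was at 0.527 and 0.636 (0.828, 0.774 to 0.893) and at a ratio of 0.975 with the subtype mix made equal. The p57+ cells, where Parp1 was highest, made up 5.85% of CIN_high and 12.2% of CIN_low epithelium. Within p57+ cells Parp1 was also lower in the CIN_high library, at 1.26 and 1.58 UMIs per 10000. The part of the subtype mix was not tested. Msh6 was at 0.172 and 0.189 (0.911, 0.791 to 1.02) and Pms2, a mismatch repair endonuclease subunit, at 0.0605 and 0.0796 (0.760, 0.623 to 0.973), with 1.02 after thinning. Xpc was at 0.254 and 0.269 (0.943, 0.875 to 1.09), Xpa at 0.242 and 0.280 (0.862, 0.858 to 1.06) and Ercc2 at 0.116 and 0.0974 (1.20). The other 8 measured genes (Mdc1, Mre11a, Xrcc6, Prkdc, Xrcc4, Xrcc1, Ogg1 and Ercc1) had ratios between 0.804 and 0.979, each with an interval that included 1. Across the same cells 9 of 24 p53 target genes were at least 1.5-fold higher, against 4.16% of all genes, and 0 lower, against 7.7%. Their median log2 ratio was 0.52, against -0.097 for all genes. The cause was not tested, and no activity of the damage kinases was measured.

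**Figure D4:**
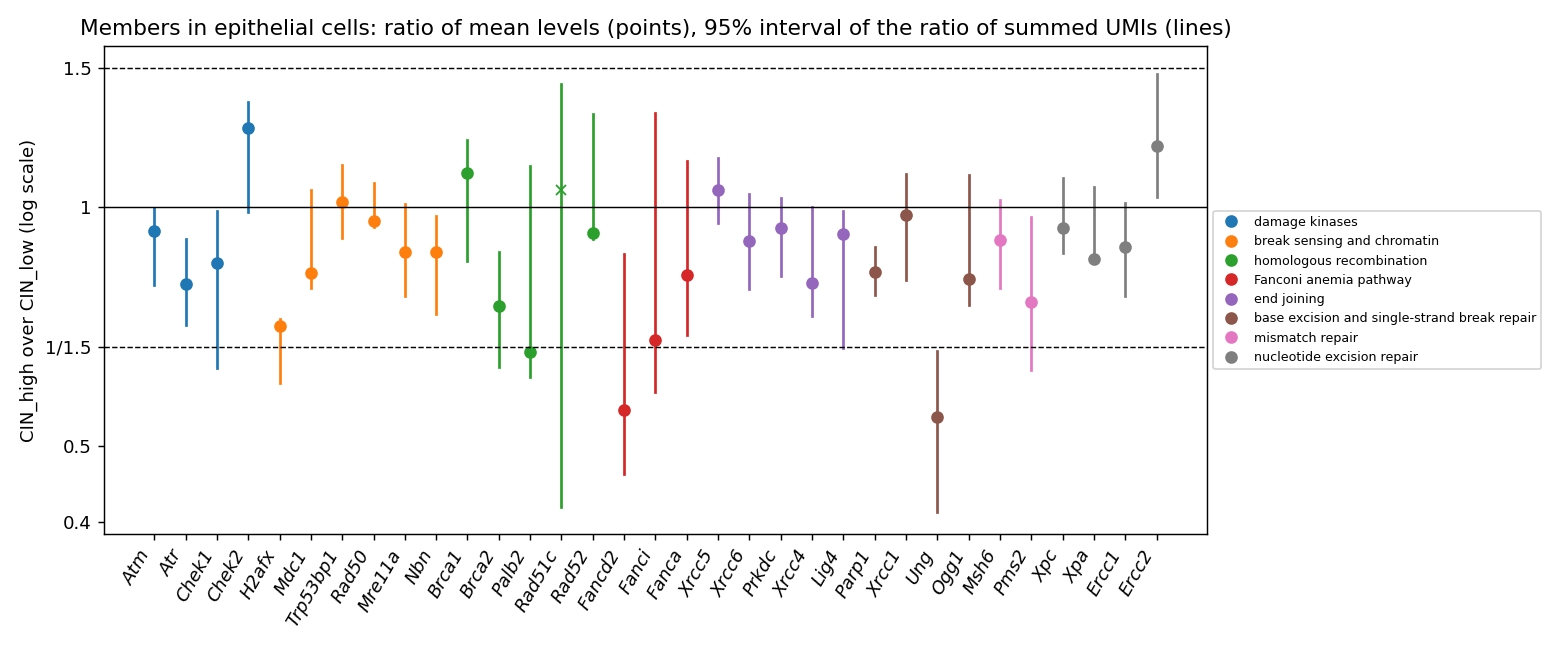
Ratio of mean levels of the 33 genes in CIN_high over CIN_low epithelial cells (points, coloured by role; the cross marks Rad51c, not measured) with the 95% interval of the ratio of summed UMIs (lines; log scale; dashed lines at 1.5-fold). Ung, Fancd2 and Palb2 lie past the lower line and no gene lies past the upper one.

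Within subtypes few of the genes past the line had an interval clear of 1. In Cancer_cell_1 (549 CIN_high and 710 CIN_low cells) 2 of 30 measured genes were at least 1.5-fold higher, against 5.98% of all genes, and 4 lower, against 8.48%. Ercc2 was at 0.136 and 0.0835 UMIs per 10000 (1.62-fold, 1.13 to 2.05) and Brca1 at 0.0700 and 0.0388 (1.80-fold, 0.971 to 2.23). Ung was at 0.0197 and 0.0426, 2.16-fold lower (0.298 to 0.860), and Ogg1, the glycosylase for oxidised guanine, at 0.0648 and 0.103, 1.59-fold lower (0.479 to 0.892). Palb2 and Fanca were lower with intervals that included 1. In Stem_cell_1 (346 and 338 cells) 1 of 31 was higher (Chek2, 1.55-fold, 0.851 to 1.73), against 8.73% of all genes, and 3 lower, against 13.1%. Of these H2afx was at 0.119 and 0.197 UMIs per 10000, 1.66-fold lower (0.489 to 0.862).

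In Proliferating cells the 33 genes had a median log2 ratio of -0.086, against -0.061 for all genes. There 1 of 33 was at least 1.5-fold higher, against 11.1% of all genes, and 2 lower, against 13.8%. Atr had levels of 0.258 (CIN_high) and 0.418 UMIs per 10000 (CIN_low), 1.62-fold lower (0.490 to 0.871; 66 and 203 UMIs). Rad52 (1.94-fold higher) and Pms2 (1.61-fold lower) had intervals that included 1. H2afx was at 1.06 and 1.49 (ratio 0.707, 0.623 to 0.797) and Ung at 0.203 and 0.269 (0.755, 0.483 to 0.905), so both were lower also among cells annotated as Proliferating, by less than 1.5-fold. Of the 33 genes the interval lay below 1 for 5 in these cells and above 1 for 0, and the share of all genes was not counted. The 5 were Atr, H2afx, Ung, Prkdc (0.239 and 0.296 UMIs per 10000) and Nbn (0.189 and 0.270). Brca1 was at 0.458 and 0.448. In p57+ cells 6 of 28 genes were higher, against 17.4% of all genes, and 5 lower, against 16%. None of these 11 had an interval clear of 1. Parp1, within the line at 1.26 and 1.58 UMIs per 10000 (108 and 484 UMIs), had the only interval below 1 there. In Enterocytes 2 of 29 were higher, against 17.4%, and 13 lower, a larger share than the 22.9% of all genes (40.3% either way), on 345 and 447 UMIs of the 33 genes together. Of those only Mre11a, the MRN nuclease, had an interval below 1 (0.144 to 0.964, on 7 and 22 UMIs).

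In myeloid cells ratios lay above 1 more often than below it. Of the 33 genes 22 were measured, 5 of them at least 1.5-fold higher in the CIN_high library, against 7.83% of all genes, and 0 lower, against 3.3%. The median log2 ratio was 0.37, and that of all genes was 0.22. Prkdc was at 0.119 and 0.0620 UMIs per 10000 (1.91-fold, 1.36 to 1.92), Mdc1 at 0.115 and 0.0732 (1.57-fold, 1.16 to 1.66) and Xrcc6 at 0.0498 and 0.0309 (1.61-fold, 1.16 to 1.92). Rad52 was at 0.0467 and 0.0294 (1.59-fold, 1.13 to 1.997) and Palb2 at 0.0450 and 0.0239 (1.88-fold, 0.969 to 1.74). On summed UMIs only 2 of the 22 stayed past the line, and where 10% of cells had to hold a UMI none did. Neutrophil markers summed to 424 UMIs per 10000 in CIN_high and 783 in CIN_low myeloid cells, and their part in these ratios was not tested.

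Endothelial cells (602 CIN_high and 247 CIN_low) had 4 of 26 genes at least 1.5-fold higher, against 12.8% of all genes, and 6 lower, against 19.6%. The only interval clear of 1 was that of Parp1, at 0.154 and 0.317 UMIs per 10000, 2.06-fold lower (0.371 to 0.859; 49 and 48 UMIs). Nbn was at 0.253 and 0.154 (1.64-fold, 0.936 to 2.39). Pericytes (83 and 58 cells) had 12 of 26 higher, against 25.8%, and 4 lower, against 23.3%, on 259 and 209 UMIs of all the genes together. The interval lay above 1 for 3 genes, and the share of all genes with such intervals was not counted. Xpa had 27 and 9 UMIs there (ratio of levels 6.08, interval 1.54 to 8.17), Parp1 22 and 9 (1.63, 1.22 to 6.79) and Xpc 23 and 11 (1.04, 1.10 to 5.35). The levels of Xpc were close, at 0.363 and 0.348 UMIs per 10000, and only its summed UMIs differed. T and NK cells (234 and 414) had 7 of 27 higher, against 13.4%, and 3 lower, against 16.8%. That is 30.2% of all genes either way, and among the 10 T and NK genes past the line none had an interval clear of 1.

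Among other repair genes, Mgmt and Polk differed by more than any of the 33. Of 127 such genes 125 were measured in epithelium, 4 (3.2%) at least 1.5-fold higher in CIN_high cells and 9 (7.2%) lower, near the shares of all genes given above, with a median log2 ratio of -0.16. Mgmt, which removes alkyl groups from guanine, had a level of 0.251 in CIN_high epithelium, against 0.0511 UMIs per 10000 in CIN_low epithelium, 4.90-fold higher (3.87 to 5.39; 589 and 192 UMIs, in 26.4% and 8.06% of cells). The translesion polymerase gene Polk was at 0.431 and 0.190 (2.26-fold, 1.98 to 2.47), and Rev1, the scaffold of translesion synthesis, at 0.423 and 0.257 (1.65-fold, 1.47 to 1.80). Ercc5, the 3′ nuclease of nucleotide excision repair, was at 0.444 and 0.246 (1.80-fold, 1.63 to 1.995). Mgmt, Polk and Rev1 were 3 of the 9 translesion and direct reversal genes, the other 6 of which were within the line. All 4 genes stayed past the line under 7 other ways of processing.

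The 5 largest differences the other way among genes with at least 30 UMIs were in Fancb (ratio 0.477, 22 and 59 UMIs), Xrcc3 (1.93-fold lower), Polq (1.90-fold lower), Rad54l (1.71-fold lower) and Cdc25c (1.70-fold lower). Fancb, a Fanconi core subunit, Polq, the polymerase of end joining by microhomology, Rad54l, a gene of homologous recombination, and Cdc25c, a mitotic phosphatase, had intervals below 1, and Xrcc3, also of homologous recombination, did not (0.343 to 1.01). Without Proliferating cells Fancb had a ratio of 1.02 and Rad54l of 0.880. Under the 7 other ways of processing the ratio of Polq rose as far as 0.986, that of Cdc25c to 0.730 and that of Xrcc3 to 0.600.

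The 4 higher genes differed between subtypes in size. In Cancer_cell_1 Mgmt had levels of 0.266 (CIN_high) and 0.0557 UMIs per 10000 (CIN_low; 4.78-fold), Polk at 0.546 and 0.188 (2.91-fold), Ercc5 at 0.565 and 0.273 (2.07-fold) and Rev1 at 0.507 and 0.297 (1.71-fold). In Stem_cell_1 the ratios were 5.53, 2.47, 2.24 and 1.82, and in Proliferating cells 3.22, 1.76, 1.33 and 1.49. In p57+ cells Polk was at 0.223 and 0.237 (0.942), Ercc5 at 0.386 and 0.334 (1.16) and Rev1 at 0.447 and 0.322 (1.39), and Mgmt had 2 and 4 UMIs. In endothelial cells Mgmt was at 0.0573 and 0.0529 (1.08) and Polk at 0.257 and 0.257, and in myeloid cells they were at 0.0362 and 0.0137 (2.64) and at 0.120 and 0.105 (1.14). Whether the ratios differ between subtypes was not tested.

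**Figure D5:**
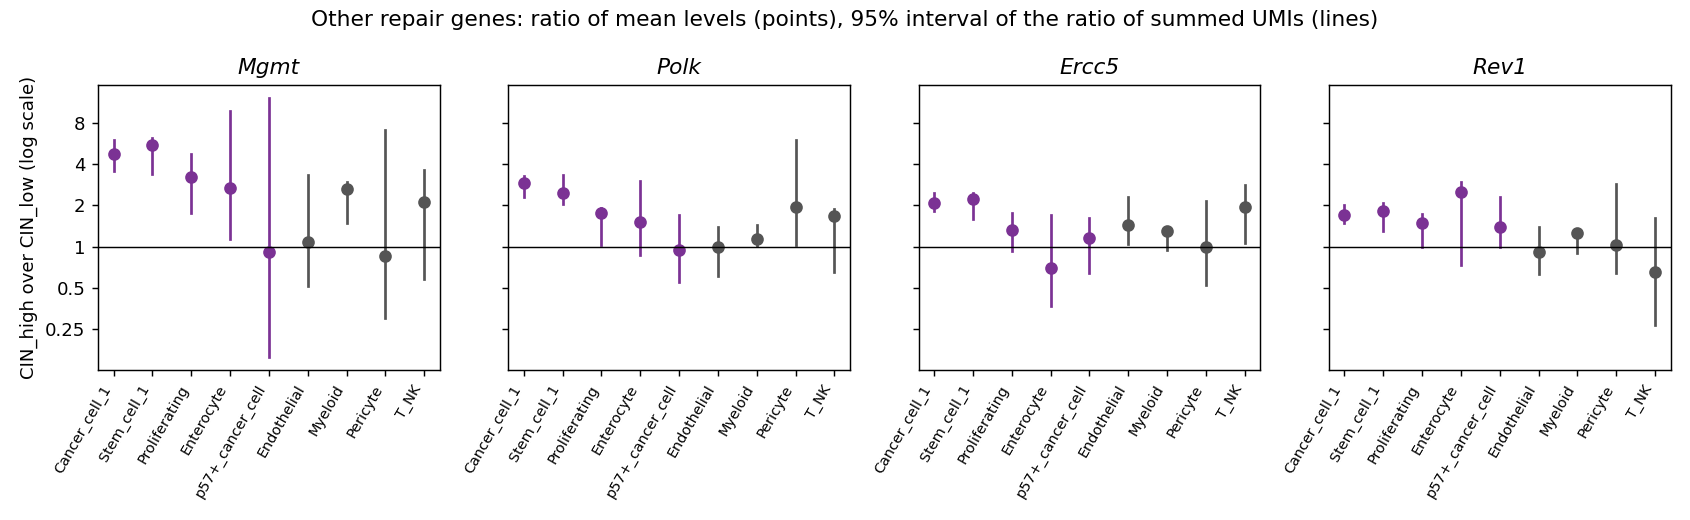
Ratio of mean levels of Mgmt, Polk, Ercc5 and Rev1 in CIN_high over CIN_low cells of 5 epithelial subtypes (purple) and 4 other cell types (grey), with the 95% interval of the ratio of summed UMIs (log scale). Intervals of all 4 genes lie above 1 in Cancer_cell_1 and Stem_cell_1 and include 1 in p57+ cells.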

How the data were processed

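Per the submitters' processing notes, the tools were Seurat and Cell Ranger 2.1.1 and the genome mm10. How cells were filtered, and whether doublets or free RNA were removed, is not stated in these sources. The authors deposited 1 matrix on the natural log scale, ln(1 + UMIs per 10000), with a class, cell type and epithelial subtype per cell. UMI counts were recovered from it by taking the exponential minus 1 and dividing by the smallest non-zero value of each cell (100% of values whole within 0.01).

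All cell names share a prefix that matches the title of the G0+T library only, whereas suffixes 1 (CIN_high) and 2 (CIN_low) match the numbers in both titles, so cells were not assigned to G0+T or G4+T. The 33 members and all gene lists were chosen with earlier results of these data known. Types and subtypes with at least 50 cells in each library were compared. A side with 0 UMIs was set to 3 UMIs. Full values were given for members past the line in epithelium and for those with the highest and lowest level of each role, at most 5 past the line elsewhere, and the 5 other repair genes (at least 30 UMIs) with the largest ratio each way; other members and subtype or type levels named were chosen after their values were seen. Scrublet (Scanpy 1.11.5, expected rate 6%) called 142 and 249 doublets, which were kept; it marked 76.9% and 75.3% of the complement-positive stem cells. Intervals are exact 95% binomial or Poisson. The functions were tested on simulated data. Promoters came from RefSeq (GRCm38.p6) and positions from GENCODE (mm10 assembly). Software was SciPy 1.17.1, numpy 2.4.6, pandas 2.3.3 and matplotlib 3.10.9 under Python 3.11.15.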

Additional observations from a re-analysis of the deposited data

Results flagged for a closer look

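In 5 cases a gene's CIN_high over CIN_low ratio lay on the other side of 1 in another cell type than in epithelium, with both intervals of summed UMIs clear of 1. The differences between cell types were not tested. The share of all genes with such a pair of intervals was not counted, so the 5 cases cannot be called particular to these genes. In myeloid cells the ratio of H2afx was 1.22 (0.707 in epithelial cells), that of Parp1 1.24 (0.828), that of Atm 1.36 (0.934) and that of Nbn 1.40 (0.879). The median log2 ratio of all genes was 0.22 in myeloid and -0.097 in epithelial cells. In pericytes the ratio of Parp1 was 1.63, on 22 and 9 UMIs.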

How the results depend on the processing

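In epithelial cells the median log2 ratio of the members (-0.19) was -0.14 when scaled without mitochondrial and ribosomal protein genes or when 10% of cells had to hold a UMI, and -0.12 with the subtype mix made equal. The 3 genes lower became 0 with that 10% filter or a line of 2-fold, 1 with the equal mix and 8 at a narrower line than 1.5-fold, and the 0 higher became 1 without Proliferating cells (Brca1, 1.73), 1 after thinning (Ercc2, 1.77) and 1 at that narrower line. Fancb reversed, at 1.02 without Proliferating cells. H2afx, within the line in the main result, ranged from 1.12-fold to 1.70-fold lower, so it did not stay inside the line throughout. Of the 33 members 11, each within 1.5-fold in the main result, lay on the other side of 1 under at least 1 alternative. They were Fanci (up to 1.15), Rad52 (1.09), Chek1 (1.06), Rad50 (1.05), Ogg1 (1.05), Xrcc1 (1.04), Pms2 (1.02), Fanca (1.02), Trp53bp1 (down to 0.992), Xrcc5 (0.993) and Rad51c (0.168). Rad51c was not measured in epithelium and had 18 and 34 UMIs there before any thinning, so its value rests on few UMIs.

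In endothelial cells the median (-0.076) reversed on summed UMIs (0.0068) and without doublets (0.058), and was -0.44 at 10% of cells. The 4 higher were 2, 7 (scaled) and 1 (10%), and the 6 lower 3 on summed UMIs and 2 at 10%. In myeloid cells the median (0.37) was 0.25 on summed UMIs, 0.42 scaled and 0.31 at 10%. The 5 higher were 2 on summed UMIs, 0 at 10% and 8 with no filter, and the 0 lower 1 with no filter. At 10% of cells pericytes had 2 lower, not 4, and T and NK cells 1 higher, not 7, and 0 lower, not 3. The cause was not tested, except that the 10% filter keeps fewer genes.

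Of the other values per gene, 268 stayed within the counting interval of the main value and 25 left it. Leaving out the complement-positive, S100a8 and Igfbp subtypes, chosen after seeing the data, kept 3 lower and 0 higher. No paired analysis was possible because each class has 1 library. Levels near 1 UMI in 10000 or below limit most members to counting errors wider than small changes.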
